A study of Mus musculus with 8 samples.

Results

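Mouse chromosome 16 carried 3414 of the 64772 Rad21 regions found in 8 ChIP-seq libraries of stimulated CH12F3 cells. A region is a stretch where peaks of any libraries overlapped by at least 1 bp, and all peaks on this chromosome were taken, 9478 of 199072 in all. The chromosome was selected on measured values, namely the lower number and lower fold enrichment of its peaks in PS_Ca, 1 of the 4 genotypes, than in the other 3. What PS_Ca had there against the other genotypes is therefore described without a test.

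CH12F3 cells are mouse B lymphoma cells that can be stimulated in culture to change their antibody class. All 8 libraries came from AID-/- cells, which lack the deaminase needed for that change, stimulated for 72 hours with anti-CD40, IL4 and TGF-β. PS_Ca cells carried a Sg3-Sa deletion that left both switch regions in part, made in cells in which the non-coding IgH allele lacked VH-3'BCEs. FS_Ca cells, made in the same kind of cells, carried a Cg3-Ia deletion and kept Sg3 and Sa at full length. PS_Ia cells carried the Sg3-Sa deletion with partial switch regions in aInv cells. FS_Ia cells, also aInv, carried a Cg3-Ca deletion with full-length switch regions. Each genotype had 2 libraries, and the labels do not say whether these were separate cultures or clones, so that the spread between them may be technical. The edited IgH locus lies on mouse chromosome 12, a different chromosome from the one described.

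Rad21 is the kleisin subunit that closes the cohesin ring. Cohesin extrudes chromatin loops and is held up at sites bound by CTCF, so Rad21 ChIP-seq maps loop anchors together with active promoters and enhancers where cohesin is loaded or slowed. Along mouse chromosome 16, the gene order of the RefSeq table for GRCm38.p6 runs from Crebbp, a histone acetyltransferase, and Ciita, the activator of MHC class II genes, past Socs1, an inhibitor of cytokine signalling. It then passes Bcl6, a transcriptional repressor in germinal centre B cells, Tfrc, the transferrin receptor, and Cd86 and Cd80, ligands that stimulate T cells. A gene-poor stretch with the axon guidance receptor Robo2 follows, then App, Ifnar1, an interferon receptor chain, and the transcription factors Runx1 and Ets2. The peaks were placed on the mm9 build, so none of these genes was assigned to a region and no sequence of a region was read.

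The lists gave for each peak the fold enrichment at its summit over the expected background of that library. The lists held 30982 and 11288 peaks for PS_Ca replicates 1 and 2, and 13840 to 47461 peaks for the other 6 libraries. PS_Ca therefore had both the shortest list and the third longest. The lowest summit called on chromosome 16 was 3 to 6 fragments high, with a −log10 q of 1.53 to 2.52. A region without a peak in a library was below that list's threshold and is not shown to be empty. No input library was used here, so the values measure precipitated fragments and not Rad21 per copy of the chromosome. The peak names fall into 3 sets by prefix, whose meaning the labels do not give: the 4 FS libraries, replicate 1 of PS_Ca and PS_Ia, and replicate 2 of PS_Ca and PS_Ia. An effect of switch length and one of these sets cannot be told apart, whereas PS_Ca and PS_Ia can be compared within a set.

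Rad21 regions were most frequent in parts of the first 40 Mb and in the last 10 Mb of chromosome 16, and sparse from 60 to 90 Mb. The 5 Mb window from 90000001 to 95000000 held 513 regions, or 103 per Mb, and the window from 30000001 to 35000000 held 486 regions, or 97.2 per Mb. The windows from 10000001 to 15000000 and from 20000001 to 25000000 followed with 349 and 320 regions. In contrast, the 6 windows between 60000001 and 90000000 held 13 to 46 regions each. The emptiest was the one from 65000001 to 70000000, with 13 regions and no region of all 8 libraries. It lies in the longest stretch without such a shared region, 7741 kb from 64907640 to 72648941.

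**Figure D1:**
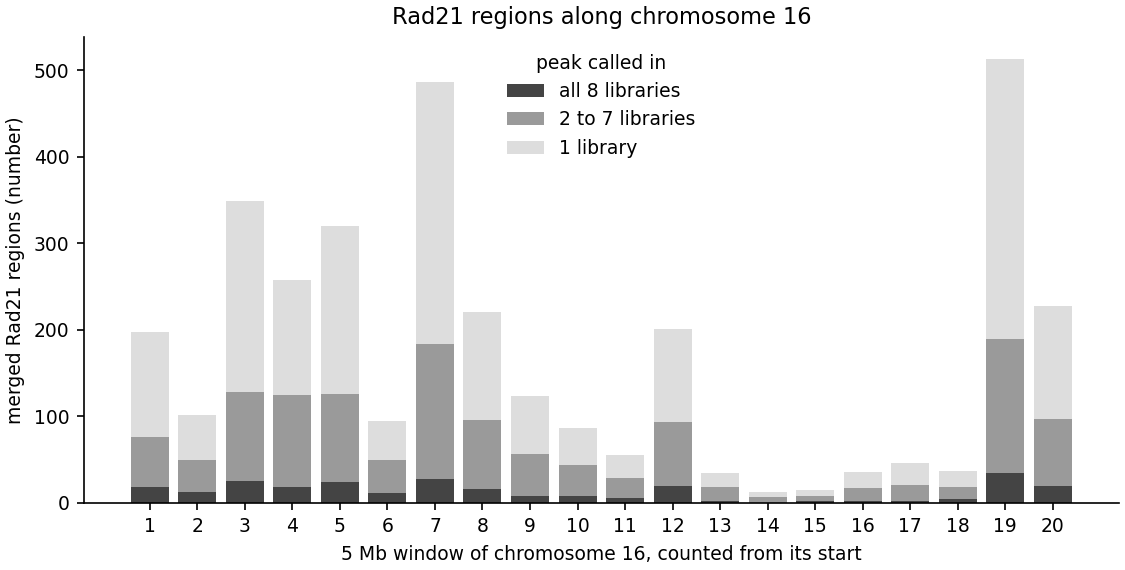
Number of merged Rad21 regions in each of 20 windows of 5 Mb along chromosome 16, split by the number of libraries with a peak there. Window 19 holds 513 regions and window 14 holds 13, and in most windows regions of a single library are the largest class.

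Of the 3414 regions, 259 (7.59%) held a peak in all 8 libraries, against 6432 (10.8%) of those on the other 18 autosomes. A further 168 (4.92%) were found in 7 libraries, against 4.80% elsewhere. Regions of 1 library made up 58.1% on chromosome 16 and 52.4% on the other autosomes. Of the 1982 single-library regions, PS_Ca replicates 1 and 2 gave 48 and 2, whereas PS_Ia replicate 2, the longest list, gave 1169 and FS_Ca replicate 2 gave 371. Single-library regions were not counted per library on the other autosomes, so these numbers are not shown to be particular to chromosome 16. The more libraries held a region, the wider and stronger it was. Merging and calling favour this, since a region spans all its peaks and a weak site seldom passes every list's threshold. Median width was 2393 bp for regions of all 8 libraries and 306.5 bp for those of 1 library. The median percentile rank within a list, where 0 is the strongest peak, was 18.8 for regions of all 8 libraries and 75.5 for single-library regions. Shared regions lay a median of 131 kb apart on chromosome 16 (quartiles 57.6 and 265 kb) and 126 kb apart on the other autosomes (quartiles 45.2 and 303 kb).

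Among shared regions, the best mean rank belonged to one near the start of the assembled chromosome, chr16:3122000-3124524. Its fold was 66.0 and 42.8 in PS_Ca replicates 1 and 2, against 57.4 and 49.7 in FS_Ca, 61.9 and 63.0 in FS_Ia, and 53.0 and 49.9 in PS_Ia. Divided by each library's median fold over shared regions of the other autosomes, PS_Ca averaged 5.38 and the other 6 libraries 5.36 ± 0.941 (SD, n = 6). Here PS_Ca lay within the range of the other genotypes.

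Next in rank was the region at chr16:11422780-11426565, with folds of 25.4 and 15.1 in PS_Ca. The other libraries had 35.9 and 38.7 in FS_Ca, 34.0 and 105 in FS_Ia, and 32.0 and 44.0 in PS_Ia. On the scale of each library's other autosomes, PS_Ca averaged 1.98 and the other 6 averaged 4.49 ± 2.29 (SD, n = 6), and the groups did not overlap. FS_Ia replicate 2 stood far above the rest there.

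The remaining 8 of the 10 leading regions were spread over the chromosome, from 10871052 to 96169133. At chr16:32505826-32510290 the fold was 24.3 and 14.5 in PS_Ca, against 15.4 to 40.9 in the other 6 libraries. The region at chr16:18442077-18446381 had 22.6 and 11.3 in PS_Ca, against 23.1 to 40.9. At chr16:94479141-94481752 the folds were 21.4 and 10.1 in PS_Ca, against 17 to 30.3. After scaling to the other autosomes, 4 of the 10 leading regions had both PS_Ca libraries below all 6 others, and the remaining 6 did not. Both PS_Ca libraries lay below in 26.3% of all shared regions on chromosome 16 and in 3.33% of those of all autosomes. The 4 of 10 are therefore not shown to be particular to the leading regions.

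The widest shared regions were neighbours. They lay at chr16:11031566-11039957 (8392 bp), chr16:10781732-10788503 (6772 bp) and chr16:10875760-10882430 (6671 bp). The first had folds of 15.8 and 10.7 in PS_Ca and 12.9 to 25.3 in the other 6 libraries. With the leading regions at 10871052 and 11422780, 5 of the regions named for height or width lay within the window from 10000001 to 15000000.

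PS_Ca had a smaller part of its autosomal peaks on chromosome 16 than any other library. The share was 3.18% (960 of 30168 peaks; 95% Wilson interval 2.99 to 3.39%) in PS_Ca replicate 1 and 3.06% (317 of 10376; 2.74 to 3.40%) in PS_Ca replicate 2. FS_Ca replicates 1 and 2 had 4.98% (827 of 16607; 4.66 to 5.32%) and 5.68% (1769 of 31166; 5.42 to 5.94%). FS_Ia had 4.85% (655 of 13512; 4.50 to 5.22%) and 4.76% (1224 of 25692; 4.51 to 5.03%). PS_Ia had 5.14% (1033 of 20116; 4.84 to 5.45%) and 5.74% (2693 of 46916; 5.53 to 5.95%). These intervals cover counting error only.

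Both PS_Ca libraries thus lay below all 6 others, with a mean of 3.12 ± 0.0898% in PS_Ca (SD, n = 2) against 5.19 ± 0.421% (SD, n = 6). The ratio of PS_Ca to the other genotypes was 0.601 on chromosome 16 and ranged from 0.930 (chromosome 12) to 1.12 (chromosome 5) over the other 18 autosomes. Within the prefix sets, PS_Ca had 3.18% against 5.14% in PS_Ia replicate 1, and 3.06% against 5.74% in PS_Ia replicate 2. The number of base pairs under peaks gave the same order, since chromosome 16 held 3.02 ± 0.188% of the autosomal length under peaks in PS_Ca and 5.49 ± 0.369% in the others (SD, n = 2 and 6).

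Among the strongest peaks the gap was wider. Of the 500 autosomal peaks with the highest −log10 q in each list, 13 and 10 lay on chromosome 16 in PS_Ca replicates 1 and 2, and 42 to 56 in each other library. That is 2.30% in PS_Ca and 9.63% in the other genotypes on average. At 1000 peaks the mean share was 2.90% in PS_Ca against 7.93%, at 2000 it was 3.12% against 6.94%, and at 5000 it was 3.22% against 5.63%. At 10000 peaks, with all libraries cut to the same length, PS_Ca had 3.30% and the others 4.78% (range 4.47 to 5.20%). The share was lower at 10000 than at 500 peaks in each of the 6 other libraries, and higher at 10000 than at 500 in both PS_Ca libraries.

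**Figure D2:**
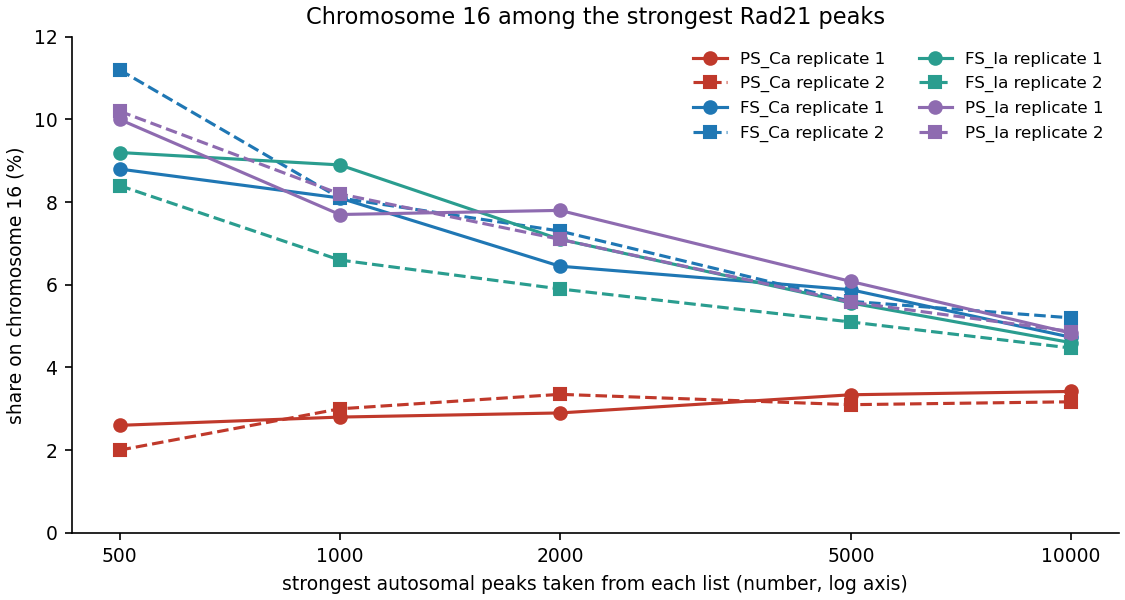
Share of chromosome 16 (vertical axis, percent) among the strongest autosomal peaks of each list (horizontal axis, number of peaks, log scale), 1 line per library. Among the first 500 peaks PS_Ca libraries have 2.60% and 2.00%, and the other 6 have 8.40 to 11.2%.

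Fold enrichment differed in the same direction. In the 259 shared regions the median fold on chromosome 16 was 11.3 and 6.93 in PS_Ca replicates 1 and 2, where the shared regions of the other autosomes had 13.0 and 7.56. In FS_Ca it was 11.5 and 13.3, beside 9.33 and 11.0 on the other autosomes. FS_Ia had 10.8 and 13.9, beside 9.28 and 11.4. PS_Ia had 12.9 and 14.0, beside 10.5 and 11.8. In fragments, the median summit on chromosome 16 was 19 and 10 high in PS_Ca, beside 22 and 11 elsewhere. In the other 6 libraries it was 13 to 25 fragments on chromosome 16 and 11 to 21 elsewhere.

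Dividing the median on chromosome 16 by that of the other autosomes gives the relative fold of each library. It was 0.870 and 0.917 in PS_Ca, 1.23 and 1.21 in FS_Ca, 1.17 and 1.21 in FS_Ia, and 1.24 and 1.18 in PS_Ia. PS_Ca averaged 0.893 ± 0.0333 (SD, n = 2) and the other 6 libraries 1.21 ± 0.0272 (SD, n = 6), a ratio of 0.740. Within the prefix sets, PS_Ca over PS_Ia gave 0.704 for replicate 1 and 0.776 for replicate 2. A step of 1 fragment corresponds to 4.35 to 8.33% of a library's median, so that smaller differences between libraries are not resolved.

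Treated in the same way, each of the other 18 autosomes had a ratio of PS_Ca to the other genotypes between 0.978 (chromosome 12) and 1.06 (chromosome 13). Over shared regions, chromosome 16 had the highest relative fold of the 19 autosomes in each of the 6 libraries outside PS_Ca, and the lowest in both PS_Ca libraries. In FS_Ca replicate 1 the next highest was chromosome 14 at 1.15, and in PS_Ia replicate 1 chromosome 14 at 1.18. In PS_Ca replicates 1 and 2 the lowest of the other autosomes stood at 0.913 and 1.00. In each of these libraries the margin was a step of 1 fragment. That step was 7.69% of the median in FS_Ca replicate 1, 5.88% in PS_Ia replicate 1, and 4.35 and 8.33% in PS_Ca replicates 1 and 2.

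Shared regions are partly set by PS_Ca, since a region counts only if both PS_Ca lists hold it. PS_Ca replicate 2 lacked more of the regions of all 6 other libraries on chromosome 16 than elsewhere, mainly weaker ones, so that the shared regions left on chromosome 16 are the stronger ones. Relative fold was therefore also taken over regions with a peak in all 6 other libraries: 417 on chromosome 16 and 8046 elsewhere. An absent PS_Ca peak was placed below every called one. This set is chosen through the 6 other libraries, where chromosome 16 is high, and absent peaks lower PS_Ca only. PS_Ca replicate 2 had no peak in 37.6% of it on chromosome 16 and 19.99% elsewhere. Values over this set are therefore a description and not free of selection. Relative fold was then 0.810 and 0.818 in PS_Ca, 1.08 and 1.11 in FS_Ca, 1.09 and 1.00 in FS_Ia, and 1.12 and 1.15 in PS_Ia. PS_Ca averaged 0.814 ± 0.00612 (SD, n = 2) and the others 1.09 ± 0.0517 (SD, n = 6), a ratio of 0.744, and chromosome 16 was again the lowest autosome in both PS_Ca libraries. The excess in the other libraries was smaller. Chromosome 16 was highest alone in FS_Ca replicate 2, level with at least 1 other autosome at the top in FS_Ca replicate 1, FS_Ia replicate 1 and PS_Ia replicate 1, and below at least 1 other in PS_Ia replicate 2 and FS_Ia replicate 2. The median over all peaks of a list showed no such shift in the 6 other libraries, being the same on chromosome 16 and elsewhere in 5 of them, for example 6.46 for both in FS_Ca replicate 1. Taken over all peaks, the ratio of PS_Ca to the others was 1.02, opposite in direction to that of the shared regions. The PS_Ca replicates disagreed in this measure. Replicate 1 had a median of 6.21 on chromosome 16 and 5.64 elsewhere, whereas replicate 2 had 6.30 and 6.93. PS_Ia replicate 2 was also lower on chromosome 16, at 4.83 against 5.37.

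**Figure D3:**
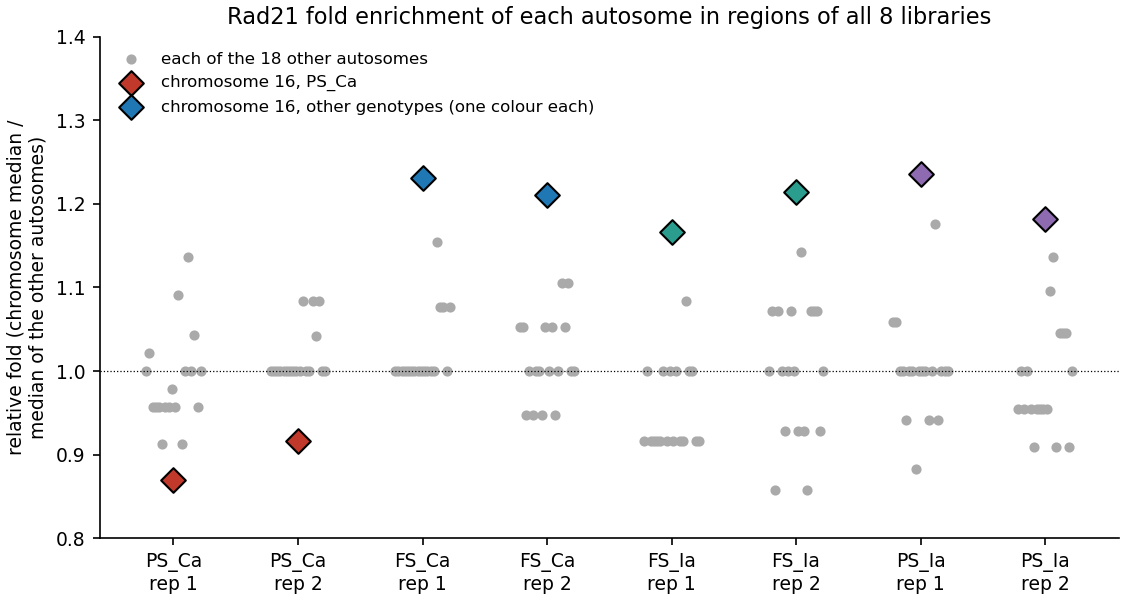
Relative fold of each autosome (median fold in regions of all 8 libraries over the median of the other autosomes) in each library. Diamonds are chromosome 16 and grey points the 18 other autosomes: chromosome 16 is lowest in both PS_Ca libraries (0.870 and 0.917) and highest in the other 6 (1.17 to 1.24).

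Rank within a list differed in the same direction over the shared regions, which carry the same dependence on PS_Ca. The shared regions of chromosome 16 had a median percentile rank of 15.8 and 46.2 in PS_Ca replicates 1 and 2, weaker than the 11.2 and 37.3 of the other autosomes in those lists. In the other 6 libraries they had 4.78 to 16.6, stronger than the 7.95 to 26.1 of the other autosomes. The regions of all 6 other libraries are chosen through those libraries, and an absent PS_Ca peak was given the weakest rank. Over them, the median rank on chromosome 16 was 22.1 and 71.4 in PS_Ca, weaker than the 14.1 and 46.2 elsewhere. In 5 of the other 6 libraries it was stronger than elsewhere, for example 11.1 against 14.7 in FS_Ca replicate 2, and in FS_Ia replicate 2 it was 18.7 in both. By single regions, 238 of the 259 (91.9%) had a lower mean relative fold in PS_Ca than in the other 6 libraries, against 51.6% of the shared regions on other autosomes. The median ratio was 0.748 (quartiles 0.653 and 0.851) on chromosome 16 and 0.993 (0.878 and 1.12) elsewhere. Both PS_Ca libraries lay below all 6 others in 68 regions (26.3%) on chromosome 16, where 3.33% of the shared regions of all autosomes did. They lay above all 6 in 0 of 259, which allows a share of up to 1.16%, where 2.33% of the shared regions of all autosomes did. That limit takes regions as independent draws, which regions of the same PS_Ca libraries are not, so it is no test against the 2.33%. As the contrast chose the chromosome, these counts are a description.

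The difference ran along the whole chromosome where shared regions were frequent enough to measure it. Of the 20 windows, 15 had at least 3 shared regions, and in all 15 the mean relative fold was lower in PS_Ca, with ratios of 0.638 to 0.953 (median 0.764). Both PS_Ca libraries lay below all 6 others in 10 of the 15 windows, where 3.97% of the windows of all autosomes did. The lowest ratio was in the window from 5000001 to 10000000, at 0.850 in PS_Ca against 1.33 in the others, over 13 regions. At the far end, from 95000001 on, PS_Ca had 0.696 and 0.750 against 1.05 to 1.15 in the other 6 libraries, over 19 regions. The window with the most shared regions, from 90000001 to 95000000, had 0.870 and 0.917 in PS_Ca against 1.09 to 1.26, over 34 regions. The ratios nearest to 1 came from 45000001 to 50000000 (0.953, 8 regions) and 85000001 to 90000000 (0.944, 4 regions). Most windows hold fewer than 20 shared regions, and single values move in whole-fragment steps.

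In the 5 windows that overlapped, FS_Ia replicate 2 had the lowest value of the 6 libraries outside PS_Ca. In some of them it was not alone. PS_Ia replicate 2 also lay below the higher PS_Ca value from 25000001 to 30000000 (0.864 against 0.917). The same held from 45000001 to 50000000 (0.932 against 1.07). From 85000001 to 90000000, FS_Ca replicate 2 (0.789) and PS_Ia replicate 2 (0.864) lay below 0.870. FS_Ia replicate 2 fell to 0.607 from 45000001 to 50000000. It also had the highest value in several crowded windows, such as 1.79 from 30000001 to 35000000. Without FS_Ia replicate 2, and with shared regions taken over the other 7 libraries, 15 of 18 windows had PS_Ca below all other libraries. This library differed between crowded and sparse stretches on other chromosomes too. Shared regions in windows with at least 15 of them had 1.38 times the median fold of those in emptier windows on chromosome 16, and 1.25 times on the other autosomes. In the other 7 libraries this quotient was 0.930 to 1.13 on chromosome 16 and 1.00 to 1.15 on the other autosomes. The part of this in the overlapping windows was not tested beyond leaving the library out.

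Peak numbers were also lower in PS_Ca along most of the chromosome. Per 10000 autosomal peaks of a library, both PS_Ca libraries had fewer than all 6 others in 13 of the 20 windows, where 3.37% of the windows of all autosomes did. From 35000001 to 40000000, PS_Ca libraries had 18.9 and 17.3 peaks per 10000 and the others 30.7 to 42.3, a ratio of 0.501 between the means. From 90000001 to 95000000 they had 32.8 and 37.6, against 47.4 to 90.2. The first window departed from this: PS_Ca had 17.9 and 29.9 peaks per 10000 there, against 22.9 to 31.1. Before position 3500000, where the best-ranked region lies, PS_Ca had 20 and 16 peaks, or 6.63 and 15.4 per 10000, against 9 to 18 peaks, or 2.77 to 10.8 per 10000, in the other libraries. Only the sparse window from 70000001 to 75000000 had a higher mean in PS_Ca, 3.09 against 2.56 per 10000, from 3 to 9 peaks per library.

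**Figure D4:**
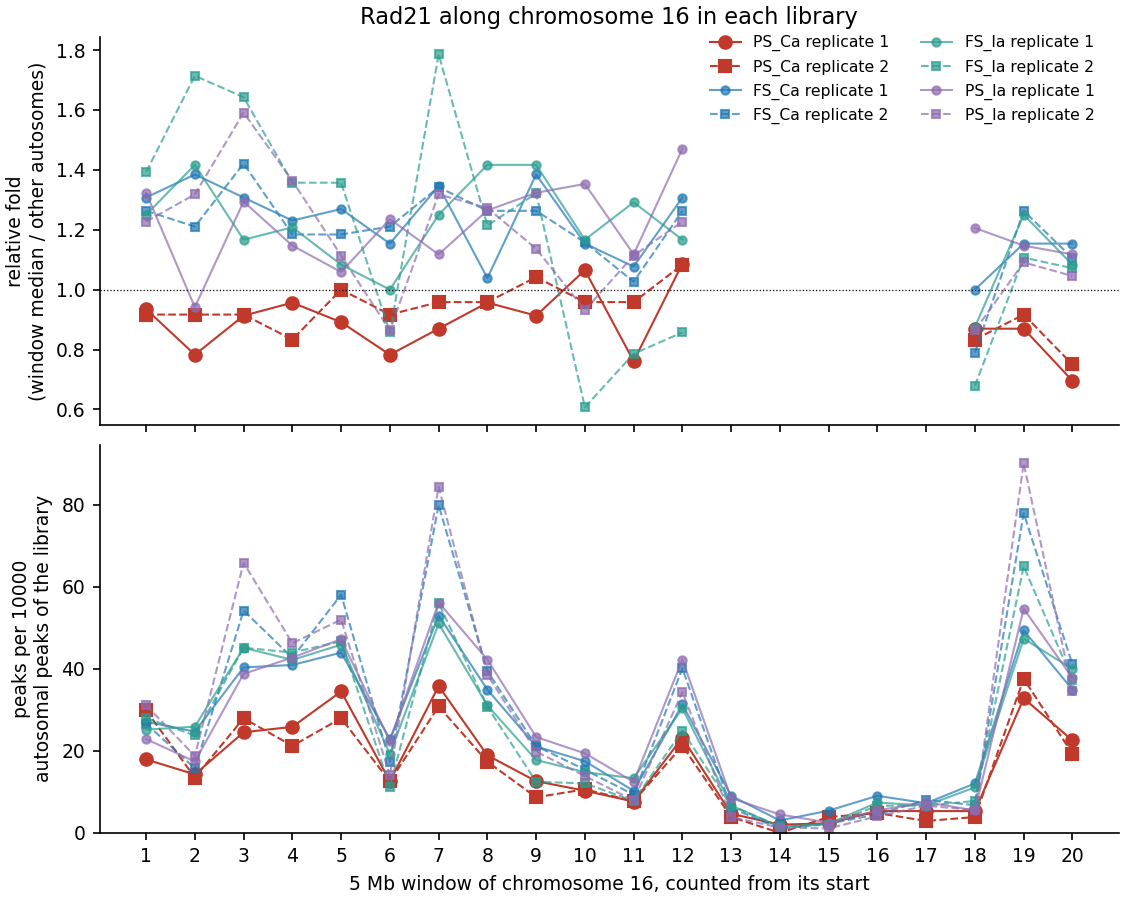
Relative fold (top; median over shared regions of the window, over the library's other autosomes) and peaks per 10000 autosomal peaks (bottom) in 20 windows of 5 Mb, 1 line per library. PS_Ca libraries lie below the 6 others in 10 of 15 windows with a relative fold and in 13 of 20 windows by peak number; windows with under 3 shared regions have no relative fold.

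Regions missing from PS_Ca were counted among those with a peak in all 6 other libraries. Chromosome 16 held 417 such regions, of which 14 (3.36%; 95% Wilson interval 2.01 to 5.56%) had no peak in either PS_Ca library. Over all autosomes 0.414% had none. On the other autosomes it was 21 of 8046 (0.261%; 0.171 to 0.399%), with at most 1.31% on any one of them (chromosome 13). Both intervals cover counting error only and take regions as independent, which those of the same libraries are not. As the contrast chose the chromosome, the intervals are no test of it. PS_Ca replicate 1, the long list, lacked 15 (3.60%) on chromosome 16 and 0.336% on the other autosomes. PS_Ca replicate 2, the shortest list, lacked 157 (37.6%), against 19.99% on the other autosomes, where single chromosomes ranged from 15.2 to 24.4%.

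PS_Ca lacked mostly weaker regions, and PS_Ca replicate 2 lacked a larger share on chromosome 16 than elsewhere in each of 4 classes of strength. For this, the regions of all 6 libraries on all autosomes were put into 4 classes of near-equal size by their mean rank in those libraries. The classes do not match strength in PS_Ca, so the shares in part restate the lower PS_Ca values that chose the chromosome. In the strongest class, PS_Ca replicate 2 lacked 13 of 153 regions (8.50%) on chromosome 16 and 0.764% elsewhere. In the next classes it lacked 33.0% against 7.53%, 56.2% against 21.8%, and 77.0% against 49.2%. PS_Ca replicate 1 lacked 0 of 153 in the strongest class, which allows a share of up to 1.96% if regions are taken as independent. In the weakest class it lacked 13 of 87 (14.9%), against 0.936% elsewhere. Of the 168 regions with a peak in 7 libraries, 143 (85.1%) lacked PS_Ca replicate 2, against 55.4% on the other autosomes.

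**Figure D5:**
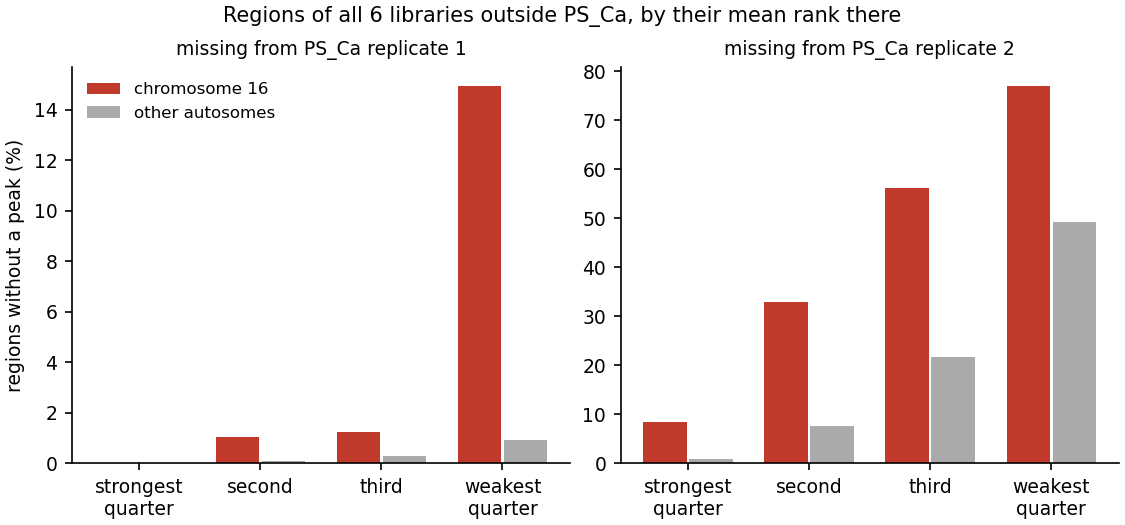
Percent of regions with a peak in all 6 libraries outside PS_Ca that have no peak in PS_Ca replicate 1 (left) or replicate 2 (right; axes differ), in 4 classes by mean rank in the 6 libraries. Red bars are chromosome 16 and grey bars the other autosomes: in the weakest class replicate 1 lacks 14.9% against 0.936%, and replicate 2 lacks 77.0% against 49.2%.

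The 14 regions absent from both PS_Ca lists were of middling strength, with mean percentile ranks of 24.7 to 70.3 in the other libraries, and lay in 10 of the 20 windows. The best-ranked was at chr16:4550706-4552062, with folds of 8.61 and 9.82 in FS_Ca, 8.51 and 12.3 in FS_Ia, and 7.40 and 9.67 in PS_Ia. The second, at chr16:44299184-44300237, had 7.17 and 8.67 in FS_Ca, 9.28 and 11.4 in FS_Ia, and 7.40 and 6.98 in PS_Ia. Summits at these regions were 9 to 17 fragments high. Others lay at chr16:95430649-95431576 (folds 4.91 to 10.1), chr16:21203589-21205319 (5.42 to 8.18) and chr16:13732577-13734815 (5.55 to 10.1). A neighbour of the last, at chr16:13440061-13441970, had folds of 5.42 to 9.67.

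In the opposite direction, 2 regions were found in both PS_Ca libraries and in no other, where 0.0713% of all autosomal regions were. They lay far apart, at chr16:3367601-3367848 and chr16:18958467-18958714. Both were 248 bp wide, and both had a fold of 4.51 in replicate 1 and 6.30 in replicate 2. The equal widths and folds of these distant regions were not examined further, as no genome of the build was used here.

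Both replicates held a peak in 302 regions of chromosome 16 in PS_Ca, 631 in FS_Ca, 493 in FS_Ia and 766 in PS_Ia. On the other autosomes they did in 8969, 12264, 10220 and 14614 regions, so PS_Ca had the fewest there too. The 302 regions of PS_Ca on chromosome 16 were nearly all shared: FS_Ca held 94.0% of them, FS_Ia 88.1% and PS_Ia 95.7%. Seen from the other side, the PS_Ca regions made up 45.0% of those of FS_Ca, 54.0% of those of FS_Ia and 37.7% of those of PS_Ia. Between FS_Ia and FS_Ca, 447 regions were common, or 90.7% of FS_Ia and 70.8% of FS_Ca. Overlap between genotypes was not counted on the other autosomes, so these shares are not shown to be particular to chromosome 16. The 302 regions were 98.1% of those in the shorter PS_Ca list, and the matching figure was 82.7 to 83.9% in the other 3 genotypes and 94.4% for PS_Ca on the other autosomes.

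The 2 factors of the design, Ia against Ca and PS against FS, are described without a test, because PS_Ca belongs to both Ca and PS and its values chose the chromosome. The share of autosomal peaks there was 5.12 ± 0.442% for Ia, against 4.22 ± 1.31% for Ca (SD over 4 libraries each). In PS libraries it was 4.28 ± 1.36% and in FS libraries 5.07 ± 0.416%. Relative fold averaged 1.20 ± 0.0310 for Ia and 1.06 ± 0.190 for Ca. For PS it averaged 1.05 ± 0.184 and for FS 1.21 ± 0.0274. The large SDs belong to the groups that contain PS_Ca, and both pairs of groups overlapped in each measure. The 3 genotypes outside PS_Ca lay close together in relative fold, with means of 1.22 in FS_Ca, 1.19 in FS_Ia and 1.21 in PS_Ia. Their mean shares lay further apart, at 5.33% in FS_Ca, 4.81% in FS_Ia and 5.44% in PS_Ia. Over the 6 libraries of these genotypes the share differed by -0.206 points between Ia and Ca and by 0.371 points between PS and FS. Both are opposite in sign to the differences of 0.898 and -0.789 points over all 8. Among the 6, however, Ca is FS_Ca alone and PS is PS_Ia alone, so neither difference isolates 1 factor. With 15 assignments of the 6 libraries no permutation p below 0.0667 can be reached, so that no test there could pass.

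Few single regions followed either factor. Those of all 4 Ia and no Ca library numbered 2, at chr16:38321294-38322135 (folds 4.31 to 7.52) and chr16:43724268-43725082 (folds 4.09 to 8.59), where 0.0254% of all autosomal regions did so. There were 0 for Ca (0.0238% of all autosomal regions). One region, at chr16:3116203-3116575, was found in all 4 PS and no FS library (0.0365% of all autosomal regions), with folds of 5.08 and 8.82 in PS_Ca and 11.7 and 5.37 in PS_Ia. It lies just before the best-ranked region of the chromosome. No region was found in all 4 FS and no PS library (0.00793% of all autosomal regions).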

How the data were processed

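Per the labels' protocols, chromatin of formaldehyde-fixed cells was sheared by sonication, pulled down with anti-Rad21 (ab992) and tagmented on the beads, with paired reads of 150 bp. Tools named in the submitters' processing notes are MACS2 2.2.7.1, Bowtie2 2.4.4, deepTools 3.5.1 and SAMtools 1.15.1, with mm9 as the build. For peak thresholds, filters and any control, nothing is stated in these sources. The authors deposited 1 list of peaks per library, not pooled, with a score, a fold (ratio to background), −log10 p, −log10 q and summit offset per peak. These are the authors' values and were used within each list. Fold moved in equal steps, so that summit heights in fragments followed from (height + 1) over (background + 1), with backgrounds of 0.223 to 0.862 fragments.

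Peaks were merged at 1 bp overlap, and a region's value was its highest peak. Relative fold was the median over regions of all 8 libraries, divided by that of the other 18 autosomes. Windows of 5 Mb needed 3 shared regions. The regions named are the 10 shared ones with the best mean rank, the 3 widest shared ones, the best-ranked of those absent from both PS_Ca lists, and those found in all libraries of PS_Ca or of 1 level of a factor and in no others. Members and lists were chosen with earlier results of these data known. Neither PS_Ca against the others nor the design's factors have a reported test: the exact permutation tests planned for the factors use the values that chose the chromosome, so that their p-values are not given. Read depth is unknown. Computation used scipy 1.17.1, pandas 2.3.3, numpy 2.4.6, matplotlib 3.10.9 and Python 3.11.15, and the measures were tested on simulated data. Alternatives covered threshold, list length, region definition, chromosome 12, height, window size and each library in turn. Geometric means, omission of the chromosome start and relative fold over regions of the 6 libraries outside PS_Ca were chosen after seeing the data.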

Additional observations from a re-analysis of the deposited data

Results flagged for a closer look

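FS_Ia replicate 2 stood far from the other libraries at chr16:11422780-11426565. Its relative fold there was 9.14, against 3.53 to 3.85 in the other FS libraries, and the gap was 0.943 of the range of the FS libraries and 0.890 of that of the Ia libraries, above Dixon's 95% critical value for 4 samples. Of 48 groups of 4 libraries examined, these 2 stood out in this way. Both rest on the same value, since FS_Ia replicate 2 belongs to both groups. Chance gives about 1 in 20, so 2 of 48 is no more than chance gives.

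The difference between Ia and Ca in the share of chromosome 16 pointed in opposite directions with the 2 switch lengths. Ia minus Ca was 2.32 percentage points with partial switch regions and -0.522 points with full-length switch regions, and in each case the 2 Ia libraries lay on one side of the 2 Ca libraries. The difference between these effects was not tested, and it rests on PS_Ca, whose share chose the chromosome.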

How the results depend on the processing

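PS_Ca minus the other genotypes in the share of peaks, -2.07 points, stayed between -2.17 and -1.77 under all 13 alternatives, the omission of each library included. The relative fold ratio of 0.740 was 0.726 to 0.763 under threshold, list length, region definition, chromosome 12, height, tall regions, per-region differences, geometric means and regions of all 6 other libraries (0.744), and 0.737 to 0.768 without single libraries. Over all peaks it was 1.02. The regions of all 6 other libraries were chosen through those libraries, so the 0.744 is not free of selection. The 10 of 15 windows with PS_Ca below the others became 8 of 15 at −log10 q of at least 5 and 9 of 14 in lists of equal length. They were 9 of 15 around summits and with per-region differences. With 10 Mb windows they were 6 of 9, with 2 Mb windows 15 of 26, and without single libraries 9 of 16 to 15 of 18. The 3.36% of regions missing from both PS_Ca libraries was 3.29 to 37.6% without single libraries, the highest value without PS_Ca replicate 1, when only the shortest list decides, and 5.74% without FS_Ia replicate 1. It was 5.26% in lists of equal length, 2.68% at −log10 q of at least 5 and 4.21% around summits. Merged regions numbered 1316 at −log10 q of at least 5 and 951 in lists of 11288 peaks, by construction, and 2445 to 3412 without single libraries.

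For Ia against Ca and PS against FS the sign turned without both PS_Ca libraries, to -0.206 points and -0.00946 (log2 relative fold) for Ia against Ca, and 0.371 points and 0.0875 for PS against FS. Ca is then FS_Ca alone and PS is PS_Ia alone, so that these values do not isolate 1 factor. Within the FS set Ia against Ca gave -0.522 points and -0.0363, within the PS sets 1.95 and 2.68 points, and over all peaks its log2 relative fold was -0.0380. The cause of these turns, and of that over all peaks, was not tested. With labels permuted within the same replicate number (the replicate block), the differences were 0.898 and -0.789 points and 0.20 and -0.21 log2 as before, and 36 assignments allow no p below 0.0556, so that no call could be gained. Replicate numbers follow the peak-name sets in PS_Ca and PS_Ia but not in FS, and replicate deviations correlated between -0.216 and 0.404 over the 6 genotype pairs (0.0790 for PS_Ca with PS_Ia), so that they were not taken to pair the libraries across all genotypes. Counts of few fragments limit single regions, and the peak lists do not separate Rad21 from the number of chromosome copies.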
